A study of Homo sapiens with 6 samples.

Results

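Transcripts of lysosomal proteases, autophagy factors and vesicle-sorting proteins were followed in HK2 cells, an established human cell line of proximal tubule epithelium, after delivery of an shRNA against PGC-1alpha. The members were all named genes whose symbol begins with ATP6V0, ATP6V1, ATG and a number, CTS and a letter, LAMP and a number, LAMTOR, RRAGA to RRAGD, GABARAP or VPS and a number. This gave 77 of the 14884 genes named on the array. They comprised 13 ATG genes, 15 cathepsins, 3 LAMP genes, 2 LAMTOR genes, 4 RRAG genes, 3 GABARAP genes, 34 protein-coding VPS genes and 3 antisense RNAs. For the proton pump itself, the pattern took only the antisense RNA ATP6V0E2-AS1, so subunits of the V-ATPase were not analysed here and acidification is represented below by assembly factors of the pump alone. All 6 arrays came from cells transduced with a pLKO.1 lentivirus and selected with puromycin, 3 with an shRNA against GFP as the control and 3 with the shRNA against PGC-1alpha. RNA was collected on day 5 after transduction, which was 24 hours after selection ended. The labels name a single shRNA for each group, describe no clones, and number the arrays of each group 1 to 3 as biological replicates without saying how the cultures were separated, so every p-value below rests on the spread among these samples, which may be technical. Every value below is a log2 RMA value, in which 1 unit is a doubling, and values of a gene are listed in the order of replicates 1, 2 and 3.

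Lysosomes degrade material delivered by endocytosis and by autophagy, and proximal tubule cells depend on them to break down the protein they reabsorb from the filtrate. Cathepsins are their main proteases, and LAMP proteins line their membrane. The Rag GTPases and the Ragulator complex, which includes the LAMTOR proteins, sit on the lysosome and recruit the growth-promoting kinase complex mTORC1 when amino acids are plentiful. When mTORC1 is inactive, ATG proteins build autophagosomes and attach LC3 and GABARAP proteins to their membranes. Most VPS proteins sort and tether the vesicles that travel between endosomes, the Golgi and lysosomes, but the VPS genes here were taken by symbol and not by role. Many lysosomal and autophagy genes are targets of the transcription factors TFEB, TFE3 and MITF. PGC-1alpha is a coactivator best known for its role in mitochondrial gene expression.

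Medians of the 6 arrays were 5.00 to 5.04. Precision is limited by how few arrays there are. The gene for PGC-1alpha was not among the named genes, so the knockdown was not checked here. Of 13 genes listed as proximal tubule markers 4 were measured and 0 passed the limma test, with 0 at an unadjusted p under 0.05. The reabsorption receptors LRP2 and CUBN had means of 3.94 ± 0.10 and 3.95 ± 0.12 (SD, n = 3) in the shGFP group. Both lay below 4.43, the 20th percentile of the gene means and a guide to dim genes. AQP1 and ANPEP, the other measured markers, lay above that guide, with shGFP means of 5.97 and 4.56. The distal tubule and collecting duct markers AQP2, AQP3 and FOXI1 had shGFP means of 6.09, 5.26 and 4.93 and did not pass. The tubule identity of the line was thus not evident from these markers. Of 10 epithelial markers 7 were measured. KRT18, EPCAM and the renal transcription factor PAX8 read between 8.54 and 11.88 on all arrays. KRT8, PAX2 and KRT7 were lower, with shGFP means of 6.56, 5.58 and 4.88, and did not pass. KRT19, EPCAM and KRT18 fell by 1.42, 0.73 and 0.31 with the shRNA against PGC-1alpha, PAX8 rose by 0.38, and of 5 measured fibroblast and endothelial markers LUM and DCN rose by 0.76 and 0.83. DCN lay below the dim guide, and the endothelial genes PECAM1, KDR and VWF, at -0.12, -0.10 and -0.04, did not pass. The summed linear level of those 5 markers was 448 to 459 in the shGFP arrays and 677 to 763 in the shPGC-1alpha arrays, and LUM alone made up 82.5% to 89.0% of it. The part of these shifts in the results below was not tested.

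Of the 77 members, 12 rose and 13 fell at a limma adjusted p under 0.05, which is 32.5% of them. Of all genes 21.8% passed, made up of 9.58% of all genes that were higher and 12.2% that were lower. The median log2 difference of the members was 0.03 against -0.02 for all genes, and the median size of a difference, regardless of sign, was 0.17 in the members and 0.14 in all genes. The control and knockdown values were fully separate for 45 members (58.4%) and for 38.7% of all genes. These shares of all genes include dim genes, whereas LAMP3 was the only member below the 20th percentile. With only genes above that percentile fitted, 1602 rose and 2059 fell, and of the members 14 rose and 15 fell. Whether the members differ from other genes of like level was not tested. With each array centred on its median, 14 members rose and 10 fell, and over all genes the split turned from 1426 higher and 1817 lower to 1867 and 1440. The changes were of mixed sign within the ATG, cathepsin, ESCRT and tethering families, as the plot of log2 differences by family shows.

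**Figure D1:**
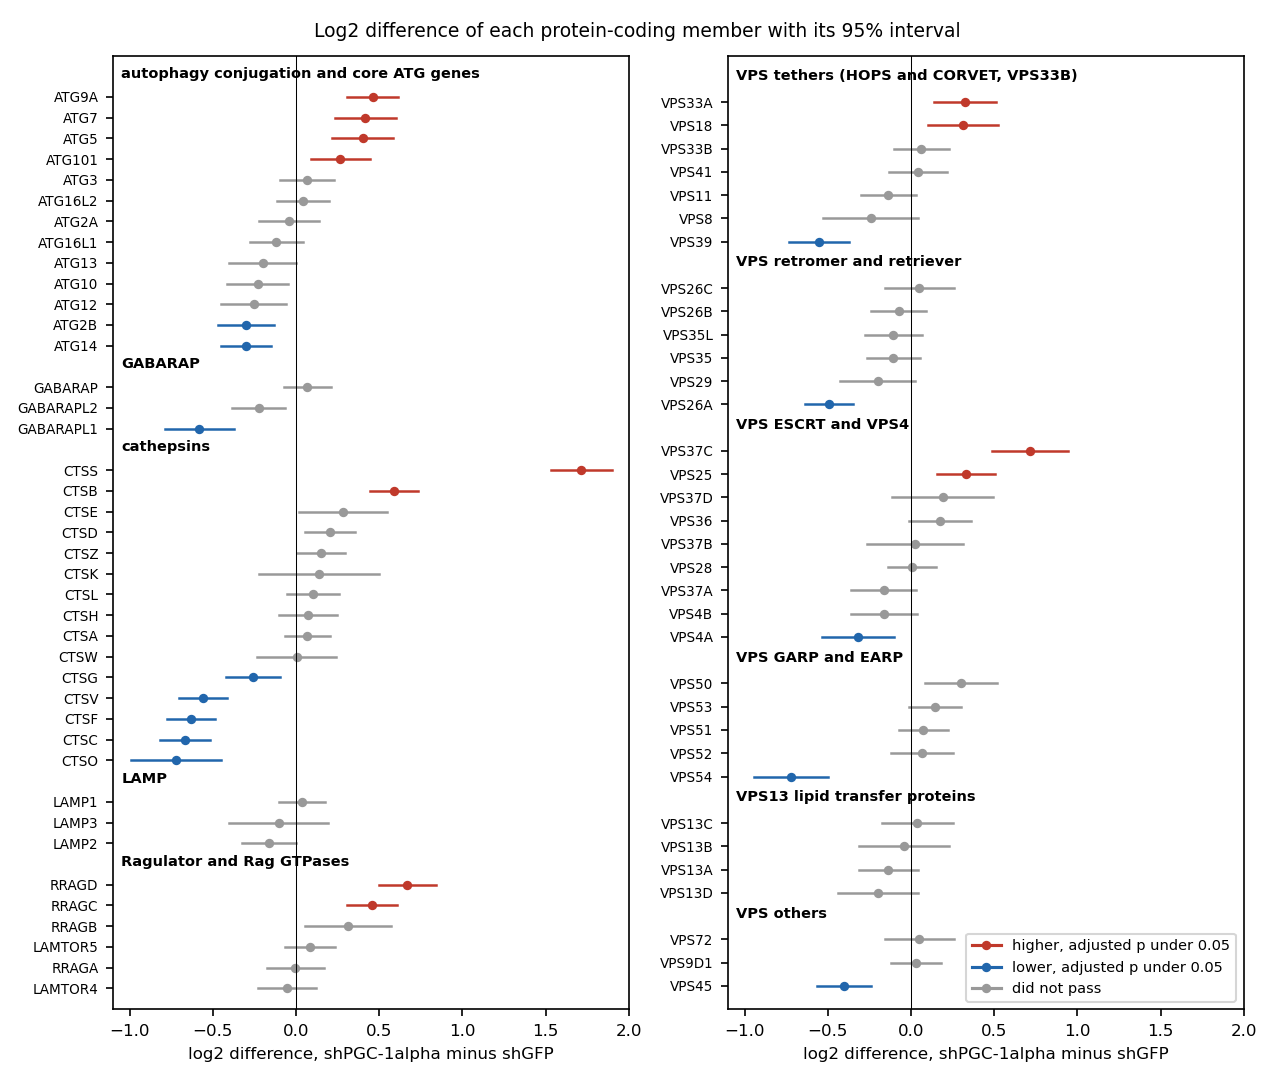
Log2 difference (shPGC-1alpha minus shGFP, horizontal axis) of each of the 74 protein-coding members, grouped by family; points are limma estimates from 3 arrays a group and bars their 95% intervals, which are not adjusted for the number of genes, so some grey bars miss 0. CTSS, at 1.72, lies farthest to the right, and VPS54 and CTSO, both at -0.72, lie farthest to the left.

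Of the 15 cathepsins 2 rose and 5 fell (46.7%, against 21.8% of all genes), and they held the largest rise among the members. CTSS, a cysteine protease that stays active at neutral pH and is known for its part in antigen presentation, read 7.30, 7.49 and 7.30 on the shGFP arrays and 9.13, 9.06 and 9.04 on the shPGC-1alpha arrays. All 3 arrays of the knockdown group stood far above the controls, and the means of 7.36 ± 0.11 and 9.08 ± 0.05 (SD, n = 3) differed by 1.72 (SE 0.08), a 3.28-fold rise with a limma adjusted p of 3.82e-05. CTSB, an abundant lysosomal cysteine protease, read 6.70, 6.65 and 6.73 with shGFP and 7.30, 7.24 and 7.30 with shPGC-1alpha. The groups were again separate, and CTSB rose by 0.59 (SE 0.06), or 1.50-fold, with an adjusted p of 0.000761 in limma. Because CTSS is abundant in macrophages and other antigen-presenting cells, markers of leukocytes were read beside it. Of 14 such markers 6 were measured. CD68, a lysosomal glycoprotein of the LAMP family, rose by 0.34, the macrophage receptor gene CSF1R fell by 0.48 and TYROBP fell by 0.28, while CD14 stood at 0.24, MARCO at 0.05 and LYZ at -0.01 without passing. Their summed linear level was 2440 to 2550 in the shGFP arrays and 2940 to 3140 in the shPGC-1alpha arrays, of which CD68 alone made up 90.4% to 94.2%. RMA values do not reach 0, and LYZ was the marker whose mean lay below the 20th percentile. The fall of TYROBP lost its call without any 1 array other than shPGC-1alpha replicate 2 (adjusted p 0.0717 to 0.132), and the part of these markers in the rise of CTSS was not tested.

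Another 5 cathepsins fell. CTSC, the dipeptidyl peptidase that activates serine proteases of leukocyte granules, read 9.54, 9.53 and 9.46 with shGFP and 8.89, 8.85 and 8.79 with shPGC-1alpha, a fall of 0.67 (SE 0.06; limma adjusted p 0.000535). CTSF, a cysteine cathepsin, went from 6.91, 6.93 and 6.91 to 6.30, 6.23 and 6.34, lower by 1.55-fold (adjusted p 0.000578 in limma). For CTSV, a close relative of CTSL, the values of 8.60, 8.51 and 8.59 compared with 7.99, 7.99 and 8.03, which is 1.47-fold lower (limma adjusted p 0.000899). In all 3 genes the arrays of a group lay far closer to each other than to those of the other group. CTSO, a cysteine cathepsin with a wider spread, read 6.94, 7.28 and 7.10 against 6.56, 6.25 and 6.34, and its difference of -0.72 (SE 0.11) had an adjusted p of 0.00443 in limma. CTSG, the cathepsin G of neutrophil granules, had means of 4.84 ± 0.09 and 4.58 ± 0.02 (SD, n = 3), not far above the dim guide of 4.43. Its fall of 0.26 (adjusted p 0.0372) was no longer called without any 1 array other than shGFP replicate 2 (0.0749 to 0.12).

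**Figure D2:**
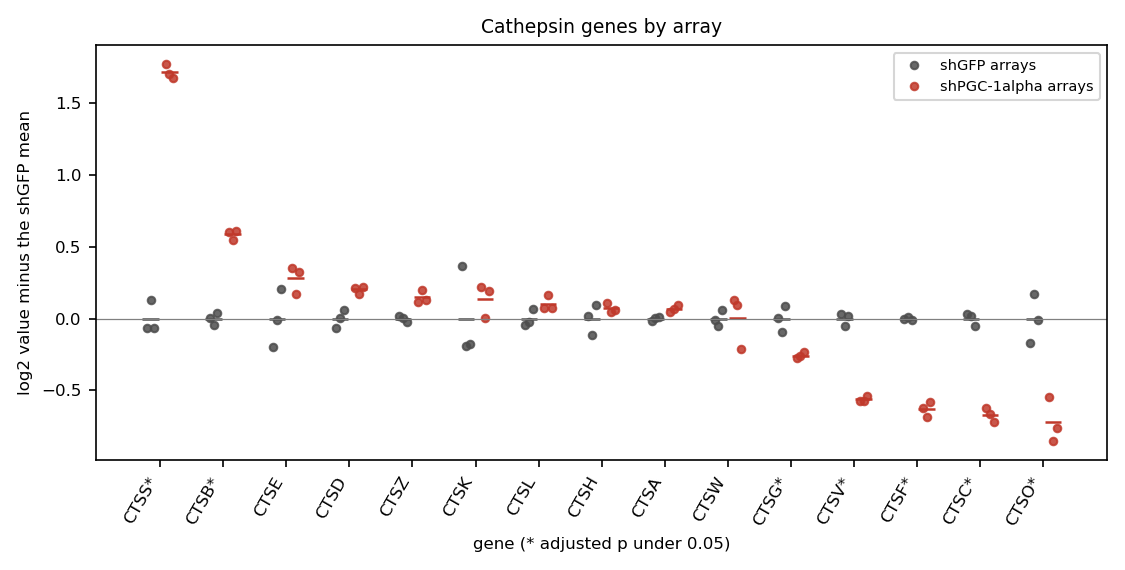
Value of each of the 15 cathepsin genes on each array, as the log2 value minus the gene's shGFP mean (vertical axis); dots are single arrays, 3 per group, short lines are group means, and stars mark an adjusted p under 0.05. The 3 shPGC-1alpha arrays of CTSS lie close to its difference of 1.72, and those of CTSV, CTSF, CTSC and CTSO lie below their controls.

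The remaining 8 cathepsins did not pass. CTSD, the main aspartic protease of lysosomes, read 12.09, 12.16 and 12.21 with shGFP and 12.36, 12.33 and 12.38 with shPGC-1alpha. The arrays did not overlap, but the difference of 0.20 (95% interval 0.05 to 0.35) had a limma adjusted p of 0.0623. CTSZ stood at 0.15 (0.00 to 0.29), CTSE, an intracellular aspartic protease, at 0.28 (0.02 to 0.55), and the collagen-degrading CTSK at 0.14 (-0.22 to 0.50). CTSK was raised on shGFP replicate 1, at 6.06, above the other shGFP arrays, at 5.51 and 5.52. CTSL, the relative of CTSV, read 8.25 ± 0.06 and 8.36 ± 0.05 (SD, n = 3), a difference of 0.10 (-0.05 to 0.26). As CTSL and CTSV are similar in sequence, probes could be shared between them. The serine carboxypeptidase CTSA, at 0.07 (-0.07 to 0.21), and the aminopeptidase CTSH, at 0.07 (-0.10 to 0.24), had intervals that included 0. CTSW, known from cytotoxic lymphocytes, stood at 0.00 (-0.23 to 0.24). The groups of CTSA, CTSL and CTSZ did not overlap, as in 38.7% of all genes, and those of CTSE, CTSH, CTSK and CTSW did. The cystatins, which inhibit cysteine cathepsins, were all measured: of 9 genes 0 passed in limma, with 1 at an unadjusted p under 0.05, and 1 passed without shGFP replicate 1. Their differences ran from -0.11 to 0.17. CSTB, the inhibitor inside cells, stood at 0.17 (adjusted p 0.0839) and the secreted CST3 at 0.10 (0.371).

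Enzymes other than cathepsins came from a list of 45 lysosomal hydrolases and their partners, of which 22 were measured. Of these, 9 rose and 3 fell (54.5%, against 21.8% of all genes), with a median difference of 0.09. ARSB, which removes sulfate from dermatan and chondroitin sulfate, rose from 6.59 ± 0.08 to 7.33 ± 0.07 (SD, n = 3), a difference of 0.74. PLBD2 rose by 0.66 and SGSH, which acts on heparan sulfate, by 0.64. LGMN, the legumain that processes several cathepsins into their mature forms, fell from 11.15 ± 0.05 to 10.59 ± 0.04, by 0.56 (limma adjusted p 0.00113). Transport to lysosomes was represented by 3 measured genes of 10. Both mannose 6-phosphate receptors, which carry new enzymes from the Golgi, were higher: IGF2R read 9.65, 9.56 and 9.62 against 10.23, 10.22 and 10.29, a rise of 0.63, and M6PR rose by 0.46 (adjusted p 0.00263 in limma). NAGPA, the enzyme that uncovers the mannose 6-phosphate tag, fell by 0.32, a call lost without any 1 array other than shPGC-1alpha replicate 2 (adjusted p 0.0525 to 0.099).

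The 3 LAMP genes did not pass. LAMP1, a main glycoprotein of the lysosomal membrane, read 10.54, 10.51 and 10.52 against 10.56, 10.53 and 10.58, and the 95% interval of its difference was -0.10 to 0.17. LAMP2, needed for the fusion of autophagosomes with lysosomes, stood at -0.16 (-0.32 to 0.00, limma adjusted p 0.15). The groups of LAMP2 did not overlap. LAMP3, found mainly in mature dendritic cells, was dim, with means of 4.25 ± 0.15 and 4.14 ± 0.22 (SD, n = 3) below the 20th percentile. Among 31 symbols listed for membrane proteins and channels of the lysosome, 15 were measured. Of these, 8 rose and 2 fell (66.7%, against 21.8% of all genes), with a median difference of 0.24. OSTM1, the partner subunit of the lysosomal chloride transporter, read 6.65, 6.83 and 6.75 against 8.24, 8.26 and 8.21, which is 2.82-fold higher. LAPTM5, known from leukocytes, rose by 1.45 and TMEM192 by 0.90. The calcium channel MCOLN3 fell by 1.12, from 7.15 ± 0.07 to 6.03 ± 0.19 (SD, n = 3). Its relative MCOLN1, named after its value was seen, rose from 7.55 ± 0.11 to 8.29 ± 0.26 (SD, n = 3), by 0.74 (SE 0.13). The second gene of this list that fell, LAPTM4A, was called only with all 6 arrays or without shGFP replicate 1 (adjusted p 0.0705 to 0.122 without the others).

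Of 14 assembly and accessory genes of the V-ATPase, 7 were measured, 1 rose and 2 fell (42.9%, against 21.8% of all genes). DMXL2, a subunit of the complex that assembles the pump, read 7.54, 7.34 and 7.39 with shGFP and 6.54, 6.54 and 6.57 with shPGC-1alpha. It was lower on each array of the knockdown group, by 0.87 (SE 0.07), or 1.83-fold, with a limma adjusted p of 0.000302. ROGDI, another part of that complex, fell by 0.30 and OXR1, whose protein interacts with the pump, rose by 0.32. ROGDI was not called without any 1 array other than shPGC-1alpha replicate 3 (adjusted p 0.0607 to 0.116), and the call of OXR1 depended on shGFP replicates 1 and 3 and on shPGC-1alpha replicate 2 (0.0612 to 0.0747 with any of them left out).

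Of the 6 Ragulator and Rag genes 2 rose and 0 fell (33.3%, against 21.8% of all genes). Rag GTPases work as pairs in which RRAGA or RRAGB binds RRAGC or RRAGD. RRAGD read 7.81, 7.96 and 7.89 with shGFP and 8.53, 8.50 and 8.64 with shPGC-1alpha. RRAGC read 7.61, 7.69 and 7.67 against 8.16, 8.12 and 8.06. Neither gene's groups overlapped, and RRAGD rose by 0.67 (SE 0.07; limma adjusted p 0.000869) and RRAGC by 0.45 (SE 0.06; 0.0026). On the other side of the pair, RRAGB read 6.73, 6.51 and 6.77 against 7.18, 6.85 and 6.92, and its difference of 0.31 (95% interval 0.05 to 0.57) had an adjusted p of 0.0896. RRAGA averaged 8.02 ± 0.08 in the control group and 8.02 ± 0.07 (SD, n = 3) in the knockdown group, so its groups overlapped, with an interval of -0.18 to 0.17. The Ragulator subunits LAMTOR4, at -0.05 (-0.23 to 0.12), and LAMTOR5, at 0.09 (-0.07 to 0.24), did not pass. Whether RRAGC and RRAGD differ from RRAGA and RRAGB was not tested.

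Other genes of mTORC1 and amino acid sensing, 23 measured of 30 listed, included 4 that rose and 1 that fell. These were 21.7% of the measured genes, near the 21.8% over all genes, and the list median was 0.02. FNIP2 and FNIP1, partners of folliculin, which switches the nucleotide state of RRAGC and RRAGD, rose by 1.02 and 0.72. FNIP2 read 7.66, 7.62 and 7.55 against 8.65, 8.55 and 8.68, so it was 2.02-fold higher with no overlap. SAMTOR, a sensor of S-adenosylmethionine, rose by 0.61. RHEB, the GTPase that activates mTORC1, rose by 0.38, but its call held only with all 6 arrays or without shGFP replicate 1 (adjusted p 0.0639 to 0.095 without any other). The gene that fell, WDR59, was lost without any 1 array other than shPGC-1alpha replicate 3 (0.0684 to 0.0884).

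Transcription factors of the MiT/TFE group moved in opposite directions. MITF read 8.23, 8.01 and 7.99 with shGFP and 6.89, 6.92 and 6.74 with shPGC-1alpha, a fall of 1.22 (SE 0.09; limma adjusted p 0.000209). TFE3 read 8.67, 8.62 and 8.66 against 9.18, 8.94 and 9.18, a rise of 0.45 (SE 0.08; 0.00818). TFEB stood at 0.05, with a wide 95% interval of -0.31 to 0.41, and TFEC was dim, with means of 2.26 ± 0.12 and 2.34 ± 0.17 (SD, n = 3). ZKSCAN3, a repressor of autophagy genes, fell by 0.37, a call lost without any 1 array other than shPGC-1alpha replicate 3 (adjusted p 0.0635 to 0.0876).

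MiT/TFE factors bind sites built around the letters CACGTG, which many other E-box factors also bind. RefSeq windows of GRCh38.p14, 250 bases before to 50 after each annotated start, were matched by symbol for 55 of the 74 protein-coding members. CACGTG, which reads the same on both strands, was present in the windows of 15 members (27.3%) and in those of 11.3% of the 9707 named protein-coding genes with a window. The longer TCACGTG, searched on both strands and always overlapping CACGTG, was present in 14 members (25.5%) and in 6.15% of those genes. By direction, CACGTG was found in 1 of the 6 members that rose and had a window, in 2 of the 11 that fell and in 12 of the 38 that did not pass. A match is a description of the letters and not evidence of binding. The 250 bases before the start of the 3 members that passed and hold the motif, and of LAMP1, which holds it most often, follow with CACGTG in capitals, since they let the sites be compared with the genes' levels. RRAGC, which rose, has 1 site (chr1:38859773-38860022, minus strand); CTSF, which fell, has 2 (chr11:66568607-66568856, minus strand); ATG14, which fell, has 1 (chr14:55411831-55412080, minus strand); and LAMP1, whose level did not pass, has 5 in these bases (chr13:113296989-113297238, plus strand) and 1 more that spans the start.
RRAGC: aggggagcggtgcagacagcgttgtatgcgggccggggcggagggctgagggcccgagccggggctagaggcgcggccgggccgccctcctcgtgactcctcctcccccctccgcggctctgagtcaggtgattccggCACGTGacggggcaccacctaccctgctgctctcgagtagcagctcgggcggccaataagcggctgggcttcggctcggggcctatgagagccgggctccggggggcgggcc
CTSF: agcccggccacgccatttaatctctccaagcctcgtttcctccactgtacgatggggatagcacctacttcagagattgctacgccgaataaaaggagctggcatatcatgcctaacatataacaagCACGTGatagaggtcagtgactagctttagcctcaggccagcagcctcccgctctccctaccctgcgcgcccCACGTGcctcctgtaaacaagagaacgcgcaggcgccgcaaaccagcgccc
ATG14: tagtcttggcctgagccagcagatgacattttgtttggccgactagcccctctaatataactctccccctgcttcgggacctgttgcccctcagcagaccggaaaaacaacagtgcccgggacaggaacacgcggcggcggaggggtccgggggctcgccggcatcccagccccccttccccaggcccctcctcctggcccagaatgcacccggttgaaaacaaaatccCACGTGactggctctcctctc
LAMP1: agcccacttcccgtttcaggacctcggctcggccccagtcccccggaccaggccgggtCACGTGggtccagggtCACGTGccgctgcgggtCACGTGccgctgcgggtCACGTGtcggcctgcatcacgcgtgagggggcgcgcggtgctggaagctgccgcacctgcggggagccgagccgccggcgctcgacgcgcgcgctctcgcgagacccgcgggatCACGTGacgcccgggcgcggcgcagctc

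In these sequences the site of RRAGC lies 112 bases before the start, those of CTSF 123 and 51 bases before it and that of ATG14 21 bases before it, each counted from the motif's first letter. In LAMP1, 4 of the sites follow each other between 192 and 142 bases before the start, and another lies at 28. Members with the motif thus include genes that rose, fell and did not pass, and CTSD, CTSA, LAMTOR4 and RRAGB are among those that did not pass.

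ATG genes split in both directions: of 13 genes 4 rose and 2 fell (46.2%, against 21.8% of all genes). ATG9A, a lipid scramblase and the membrane protein of the vesicles that seed autophagosomes, read 8.60, 8.50 and 8.52 with shGFP and 9.05, 8.94 and 9.01 with shPGC-1alpha. It rose by 0.46 (SE 0.07), or 1.38-fold, with a limma adjusted p of 0.00275 and no overlap between the groups. ATG7, the E1-like enzyme that activates ATG12 and the LC3 and GABARAP proteins, read 6.50, 6.41 and 6.57 against 6.97, 6.95 and 6.80, a rise of 0.42 (SE 0.08; adjusted p 0.00857). ATG5, the partner to which ATG12 is joined, read 8.30, 8.18 and 8.09 against 8.64, 8.51 and 8.61, a rise of 0.40 (SE 0.08; 0.0109). ATG101, a subunit of the ULK1 kinase complex, rose by 0.27 (adjusted p 0.0453). Its call was lost without any 1 of the 6 arrays (0.0536 to 0.145), and a second probe set of ATG101 gave 0.13 (SE 0.12).

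Of the ATG genes that fell, ATG14, the subunit that directs the class III PI3-kinase to autophagy, read 8.23, 8.20 and 8.13 with shGFP and 7.83, 7.92 and 7.90 with shPGC-1alpha. It fell by 0.30 (SE 0.06; limma adjusted p 0.0153). ATG2B, which carries lipids into the growing membrane, read 8.04, 7.86 and 7.87 against 7.63, 7.62 and 7.62, and also fell by 0.30 (SE 0.07; 0.0235). ATG14 was not called without shGFP replicate 2 or shPGC-1alpha replicate 1 (0.0519 to 0.0576), and ATG2B was not called without shGFP replicate 1 or any 1 shPGC-1alpha array (0.055 to 0.0662). Among the 7 ATG genes that did not pass, the ubiquitin-like ATG12 stood at -0.25 (adjusted p 0.0714), the E2-like ATG10 that joins it to ATG5 at -0.23 (0.079), ATG13 of the ULK1 complex at -0.20 (0.153) and ATG16L1, the partner of the ATG12 and ATG5 conjugate, at -0.12 (0.281). The other 3, ATG3, ATG16L2 and ATG2A, lay between -0.04 and 0.07.

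Within the GABARAP family, whose proteins are attached to autophagosome membranes, GABARAPL1 fell. It read 9.15, 9.18 and 9.23 on the control arrays and 8.63, 8.75 and 8.45 on the knockdown arrays, lower by 0.58 (SE 0.09), or 1.50-fold, with a limma adjusted p of 0.0036. GABARAPL2 read 8.40, 8.35 and 8.46 against 8.14, 8.15 and 8.25, and its difference of -0.22 (95% interval -0.38 to -0.06) had an adjusted p of 0.0553. GABARAP read 11.04, 11.07 and 10.99 against 11.10, 11.10 and 11.11, a difference of 0.07 (-0.07 to 0.21). GABARAPL1 has a close copy in the genome, GABARAPL3, whose transcripts its probes could share. Among the related LC3 genes and autophagy receptors, 17 of 21 were measured. Of these, 5 rose and 3 fell (47.1%, against 21.8% of all genes), with a median of 0.07. SQSTM1, the p62 receptor that links ubiquitin to LC3, read 7.83, 7.84 and 7.85 against 8.36, 8.32 and 8.34, a rise of 0.50 (adjusted p 0.00118). PHB2, a mitochondrial prohibitin that also serves as a mitophagy receptor, fell by 0.79, CALCOCO1 by 0.60 and SEC62, a receptor for autophagy of the endoplasmic reticulum, by 0.40. The receptor genes OPTN, BNIP3 and BNIP3L, named after their values were seen, rose by 0.33, 0.33 and 0.28 (limma adjusted p 0.00819, 0.00936 and 0.0147). BNIP3L was not called without shGFP replicate 2 (0.0578). MAP1LC3B and its near-identical copy MAP1LC3B2, named after their values were seen, stood at 0.36 (adjusted p 0.0361) and -0.35 (0.165), and their probes could share transcripts, so these values are uncertain. MAP1LC3B was not called without any 1 array other than shGFP replicate 3 and shPGC-1alpha replicate 2 (adjusted p 0.101 to 0.115). Without shGFP replicate 2, the number of genes of this list that rose was 3.

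**Figure D3:**
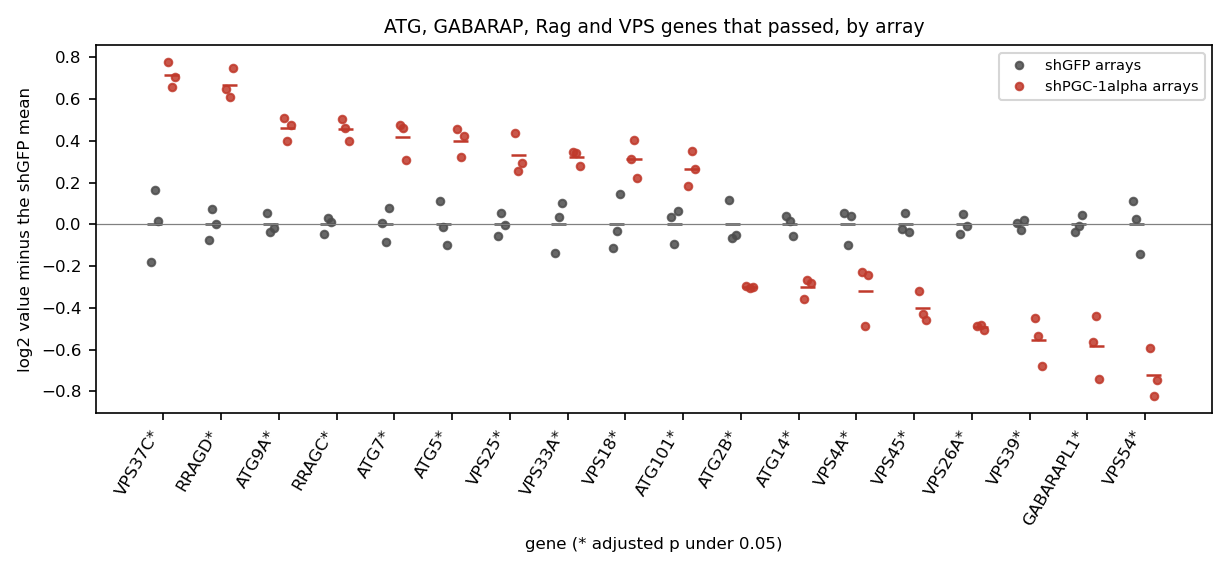
Values by array of the members outside the cathepsins that passed, as the log2 value minus the gene's shGFP mean (vertical axis); dots are single arrays, 3 per group, and short lines are group means. These genes were chosen by adjusted p on the same arrays, and the groups do not overlap in any of them, as in 38.7% of all genes. VPS37C and RRAGD show the largest rises and VPS54 and GABARAPL1 the largest falls.

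Genes that start autophagy, 13 measured of 20 listed, included 2 that rose and 2 that fell (30.8%, against 21.8% of all genes). The list median was 0.08. NRBF2, a regulatory subunit of the class III PI3-kinase complex that holds ATG14, read 8.44, 8.51 and 8.48 against 9.10, 9.04 and 8.98, a rise of 0.56 (limma adjusted p 0.00117). RB1CC1, the scaffold of the ULK1 complex also called FIP200, fell by 0.35 (0.0099). ULK2, a kinase of that complex, fell by 0.38 and VMP1, a scramblase of the endoplasmic reticulum, rose by 0.23. ULK2 was not called without shGFP replicate 3 (adjusted p 0.0514) and VMP1 without any 1 of the 6 arrays (0.0552 to 0.122). Of 15 measured genes of autophagosome and endosome fusion, out of 22, EPG5 rose by 1.03 and the others did not pass. The share that passed was 6.67%, against 21.8% of all genes. EPG5, a tether between autophagosomes and lysosomes, read 8.37, 8.16 and 8.21 against 9.32, 9.26 and 9.25, which is 2.04-fold higher (limma adjusted p 0.000204). Without shPGC-1alpha replicate 3, the number that rose was 3.

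Of the 34 protein-coding VPS genes 4 rose and 5 fell (26.5%, against 21.8% of all genes). The tethering complex CORVET acts on early endosomes, and HOPS brings late endosomes and autophagosomes to lysosomes. Among 7 VPS tethering genes, counting VPS33B, 2 rose and 1 fell (42.9%, against 21.8% of all genes). VPS39, a HOPS subunit, read 9.10, 9.07 and 9.12 with shGFP and 8.65, 8.56 and 8.42 with shPGC-1alpha. The knockdown arrays were all lower, by 0.55 (SE 0.08) on average, with a limma adjusted p of 0.00239. VPS33A and VPS18, both in the core that HOPS and CORVET share, rose by 0.32 and 0.31 (adjusted p 0.0257 and 0.0455). VPS33A averaged 6.97 ± 0.12 against 7.29 ± 0.04 (SD, n = 3), and VPS18 read 7.32, 7.39 and 7.57 against 7.74, 7.83 and 7.65. Their calls held only with all 6 arrays or without shGFP replicate 3: with any other array left out the adjusted p was 0.0542 to 0.0751 for VPS33A and 0.0588 to 0.129 for VPS18. The other 4 of the 7 genes, VPS33B among them, lay between -0.24 and 0.06.

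Retromer returns receptors from endosomes to the Golgi and the cell surface. VPS26A, its arrestin-like subunit, read 10.12, 10.22 and 10.16 with shGFP and 9.68, 9.69 and 9.66 with shPGC-1alpha, a fall of 0.49 (SE 0.06; limma adjusted p 0.00158). The arrays of each group lay close together and the groups were well apart. Its partner VPS29 stood at -0.20 (95% interval -0.43 to 0.02; adjusted p 0.196), and VPS35 and the paralogue VPS26B, named here as partners after their values were seen, at -0.11 (-0.27 to 0.05) and -0.07 (-0.24 to 0.09). Retromer, WASH and COMMD partners, 22 measured of 25, had 4 rises and 1 fall. These were 22.7% of the measured genes, near the 21.8% over all genes, and the list median was 0.07. SNX3, a sorting nexin that recruits retromer, rose by 0.39 and WASHC5, a subunit of the actin-regulating WASH complex, by 0.30. COMMD1 and COMMD8, subunits of the endosomal Commander complex, rose by 0.33 and 0.28. WASHC5 was lost without shGFP replicate 3 (adjusted p 0.0509), COMMD1 without any 1 array other than shGFP replicate 3 and shPGC-1alpha replicate 1 (0.0693 to 0.0873), COMMD8 without any 1 array other than shGFP replicate 1 (0.0524 to 0.11), and the gene that fell, WASHC4, without any 1 of the 6 (0.0642 to 0.12).

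ESCRT complexes sort ubiquitinated cargo into vesicles inside endosomes and close the membranes. VPS37C, a variable subunit of ESCRT-I, read 5.74, 6.08 and 5.93 with shGFP and 6.69, 6.58 and 6.62 with shPGC-1alpha, a rise of 0.71 (SE 0.10), or 1.64-fold, with a limma adjusted p of 0.00222. The other forms of that subunit did not pass: VPS37A, VPS37B and VPS37D, named after their values were seen, stood at -0.16, 0.03 and 0.19. VPS25 of ESCRT-II read 9.72, 9.82 and 9.77 against 10.21, 10.02 and 10.07, a rise of 0.33 (adjusted p 0.0183), and its ESCRT-II partner VPS36 stood at 0.17 (0.171). VPS4A, an ATPase that takes ESCRT-III apart, read 7.56, 7.41 and 7.55 against 7.28, 7.02 and 7.26, a fall of 0.32 (adjusted p 0.0458). VPS25 was lost when shGFP replicate 1, shGFP replicate 3 or shPGC-1alpha replicate 1 was left out (0.0532 to 0.0583), and VPS4A without any 1 of the 6 arrays (0.0577 to 0.128). Of ESCRT genes without a VPS name, 16 were measured of 23 listed symbols, and 3 rose and 2 fell (31.2%, against 21.8% of all genes). The list median was -0.04, or 0.01 with each array centred on its median. The ESCRT-III genes CHMP1B and CHMP4C fell by 0.51 and 0.43, and the early ESCRT gene STAM rose by 0.35. CHMP4B rose by 0.21, a call lost without any 1 of the 6 arrays (adjusted p 0.0688 to 0.117), as was that of CHMP4A, the third gene of this list that rose (0.0611 to 0.149).

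GARP tethers vesicles from endosomes at the Golgi, and VPS54 is the subunit found in GARP and not in the related EARP complex, which has VPS50 in its place. VPS54 read 7.43, 7.35 and 7.18 with shGFP and 6.73, 6.50 and 6.57 with shPGC-1alpha. No array of the knockdown group reached the lowest control, and VPS54 fell by 0.72 (SE 0.09), or 1.65-fold, with a limma adjusted p of 0.00194. VPS50 read 7.26, 7.12 and 6.96 against 7.46, 7.46 and 7.32, and its difference of 0.30 (95% interval 0.08 to 0.52) had an adjusted p of 0.0581. It passed in 8 of 16 alternative fits, among them that without shGFP replicate 1 and that with the replicate number as a block (limma adjusted p 0.0424). VPS53, shared by both complexes, stood at 0.14 (-0.01 to 0.30; adjusted p 0.189), and the other shared subunits VPS51 and VPS52, named after their values were seen, both at 0.07. Whether VPS54 and VPS50 responded differently was not tested.

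The remaining VPS genes included a single change. VPS72, a member by its symbol whatever its role, stood at 0.05 and did not pass. VPS45, which guides SNARE proteins in fusion at the trans-Golgi and early endosomes, read 8.90, 8.98 and 8.89 with shGFP and 8.60, 8.49 and 8.46 with shPGC-1alpha, a fall of 0.40 (SE 0.07; limma adjusted p 0.00593). The 4 VPS13 genes, which encode lipid-transfer proteins, lay between -0.20 and 0.04 and did not pass. Several members were high on shGFP replicate 1, among them VPS13B, at 8.06 against 7.64 and 7.69 on the other control arrays, and VPS13D, at 7.61 against 7.25 and 7.30. Over all 77 members, however, the arrays of the control group shared the extremes: replicate 1 was the highest for 31, replicate 2 for 23 and replicate 3 for 23. In the shPGC-1alpha group replicate 1 was the highest for 39, replicates 2 and 3 for 19 each. The spread of the members was lower than that of all genes, with a median SD between control arrays of 0.07 against 0.09.

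The 3 antisense RNAs did not pass. ATP6V0E2-AS1 stood at -0.14 (95% interval -0.33 to 0.06), VPS13A-AS1 at -0.20 (-0.36 to -0.04; limma adjusted p 0.0827) and VPS9D1-AS1 at 0.08 (-0.19 to 0.35). Whether the array's probes tell strands apart is not given in the sources used here, so these RNAs and the genes they overlap may share signal. VPS13A and VPS9D1 themselves, named here as their partners, stood at -0.14 and 0.03.

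With 1 array left out, 8 to 11 members rose and 10 to 11 fell, and over all genes 1011 to 1170 rose and 1301 to 1502 fell. Of the 25 members that passed, 17 did so whichever array was left out. The remaining 8 were ATG101, ATG14, ATG2B, CTSG, VPS18, VPS33A, VPS25 and VPS4A, whose adjusted p with all arrays lay between 0.0153 and 0.0458. Over the 167 measured genes of the 12 pathway lists, 40 rose and 19 fell (35.3%, against 21.8% of all genes). Their median was 0.08, and 48 rose and 13 fell with each array centred on its median. Without shGFP replicate 3 the number that fell was 12. Each member's calls with arrays left out are drawn in the plot of adjusted p, and the listed genes in the plot of pathway lists.

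**Figure D4:**
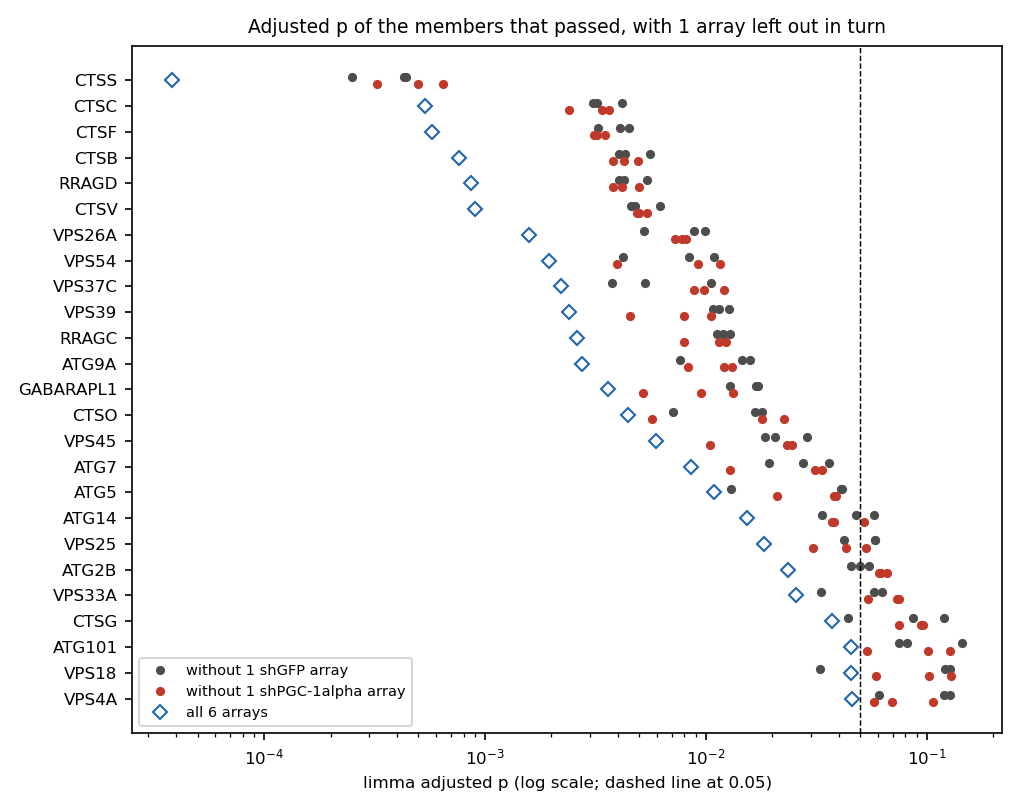
Limma adjusted p (horizontal axis, log scale) of the 25 members that passed, with all 6 arrays (diamonds) and with 1 array left out (dots, coloured by the group of that array). CTSS stays lowest, and dots to the right of the dashed line at 0.05 belong to the 8 members whose call was lost at least with 1 array left out.

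**Figure D5:**
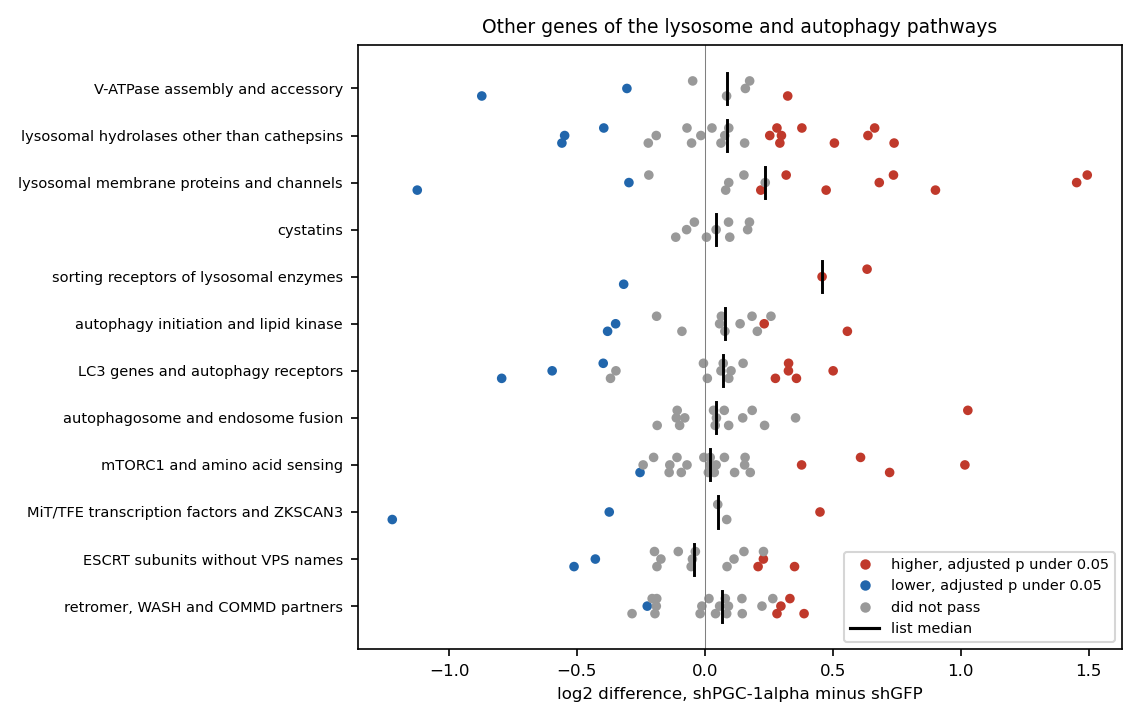
Log2 difference (shPGC-1alpha minus shGFP, horizontal axis) of each measured gene in the 12 pathway lists; dots are genes, vertical spread within a list has no meaning, and black lines are list medians. The lists of lysosomal membrane proteins and of sorting receptors have the highest medians, at 0.24 and 0.46, the latter over 3 genes.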

How the data were processed

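RNA from 6 HK2 samples was measured on Affymetrix arrays. The authors deposited log2 values for 53617 probe sets, made with RMA in Affymetrix Expression Console per the submitters' processing notes, with versions and settings not given in the sources used here. RMA makes the arrays' distributions alike, which would reduce a shift of most transcripts in 1 direction. The platform's annotation table named 16098 probe sets, which gave 14884 genes, and 37519 probe sets were unnamed here. The probe set with the highest mean stood for a gene. All 77 members matched RefSeq (GRCh38.p14) by gene identifier.

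Groups came from the sample titles. The comparison used lmFit and eBayes of limma 3.58.1 under R 4.3.3, two-sided at default settings with no filter or block, and Benjamini-Hochberg adjustment over the 14884 genes at a threshold of 0.05. The smallest p of an exact permutation test is 0.1 for groups of this size. The procedure was tested on simulated data. The members, gene lists and tests were chosen with earlier results of these data known. Named by rule were all members that passed, all members outside the ATG and VPS families, 4 further genes of each of those 2 families by smallest p, up to 4 genes per pathway list by smallest p among those that passed or 2 where 0 passed, and all MiT/TFE genes. Alternatives changed the scaling, the variance model, the weighting of arrays, the choice of probe set and the filter on dim genes, blocked on the replicate number, or left out 1 array at a time.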

Additional observations from a re-analysis of the deposited data

How the results depend on the processing

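Of the 25 members that passed, 16 did so under all 16 alternatives and 0 changed sign with a call in any of them. Fitting and adjusting all 53617 probe sets together, which changes the variance model as well as the number of tests, moved the counts most: 767 genes rose and 970 fell, 7 members rose and 9 fell, and 23 genes of the pathway lists rose and 9 fell. ATG5 was then lost too (adjusted p 0.0509). With 1 array left out, the pathway lists had 27 to 33 genes that rose and 12 to 16 that fell. With the replicate number as a block, 9 members rose and 12 fell, and 1221 genes rose and 1552 fell. Same-numbered arrays' deviations from their group means correlated at 0.12, 0.09 and 0.02 over genes. Other pairs gave -0.12 to 0.06, the highest for shGFP replicate 3 with shPGC-1alpha replicate 2. With 3 arrays a group, these values cannot settle whether same-numbered samples were paired. With a trended variance, 16 members rose and 14 fell, beside 1759 that rose and 2211 that fell over all genes. CTSD, CTSZ, GABARAPL2, LAMP2, RRAGB and VPS50 then passed, and CTSG no longer did. The median over all genes moved from -0.02 to 0.04 with arrays centred. The motif count was 14 with the longer motif against 15. RMA values hold no counts or detection calls, so signal over background was not measured for dim genes such as LAMP3.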
